A study of Homo sapiens with 3 samples.

Results

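The 73 genes described here carry symbols of mitochondrial ribosomal proteins and were followed in LNCaP cells treated with n-butylidenephthalide (BP). They were chosen by name: every transcript cluster whose only gene symbol began with MRPL or MRPS and a digit was taken, which gave 76 of 33297 clusters on the array and 73 of 19208 genes with a single symbol. Of these, 47 symbols began with MRPL and 26 with MRPS. By the structure of the human mitoribosome, 49 of the proteins belong to the large subunit, 23 to the small subunit and 1, MRPS36, to neither. MRPS18A and MRPS30 carry the prefix of the small subunit but sit in the large one, and MRPS36 is now named KGD4, a component of the 2-oxoglutarate dehydrogenase complex. MRPS36 was kept, by its older symbol, in the counts of the 73 mitochondrial ribosomal protein genes below. MRPS6, MRPS21 and MRPS28 were not among the 73, since their clusters also carried the symbol of another gene.

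LNCaP is an androgen-responsive human prostate cancer cell line, and BP is a compound isolated from Angelica sinensis. One array each was made by the authors from cells given 70 µg/ml BP for 3 h, from cells given 70 µg/ml BP for 24 h and from control cells, on Affymetrix Human Gene ST arrays. The label of the control array gives neither a vehicle nor a harvest time, although the series title names DMSO. With 1 array per condition no test was possible and the spread between cultures is unknown, so every difference below compares these arrays.

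Mitochondria keep a ribosome of their own, which translates the few mRNAs of the mitochondrial genome into core subunits of the respiratory chain and ATP synthase. Its rRNAs are made from mitochondrial DNA, but all of its proteins are encoded in the nucleus, made in the cytosol and imported. Some descend from bacterial ribosomal proteins, and others are specific to mitochondria, where they cover a ribosome with shortened rRNAs.

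The values are log2 expression values as the authors deposited them, and a difference is the log2 value of BP-treated cells minus that of control cells, or of 24 h minus 3 h. Over all clusters the medians were 5.46 at 3 h and 5.48 at 24 h, against 5.48 in control cells. The 73 genes had a median of 7.96 at 3 h and 7.83 at 24 h, against 7.94 in control cells, and 70 of them lay above the array median on each array. The 3 below it, MRPL13, MRPS36 and MRPS18C, had the lowest mean levels of the 73. Many deposited values were exactly the same on a pair of arrays: 23.3% of the 73 genes at 3 h and 37.0% at 24 h had the control value, against 41.1% and 46.7% of all genes. Of the 10 LNCaP markers measured, none lay below the array median on any array, with ranges of 8.26 to 10.46 at 3 h and 6.31 to 11.08 at 24 h, against 8.31 to 10.41 in control cells. KLK3, which encodes prostate-specific antigen, was 10.05 at 3 h and 7.38 at 24 h, against 10.16 in control cells, and 7 of the 10 markers were at least 2-fold lower at 24 h. In contrast, the keratin gene KRT8 was 10.46 at 3 h and 11.08 at 24 h, against 10.14 in control cells, and KRT18 differed by 0.11 at 24 h. Markers of other prostate cancer lines lay below the array median on every array for 5 of 6 genes, those of neuroendocrine cells for 2 of 3, and those of fibroblasts, endothelium and blood for 9 of 11. The third neuroendocrine marker, ENO2, was 6.84 at 3 h and 7.38 at 24 h, against 6.75 in control cells. The part of these marker shifts in the results below was not tested.

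**Figure D1:**
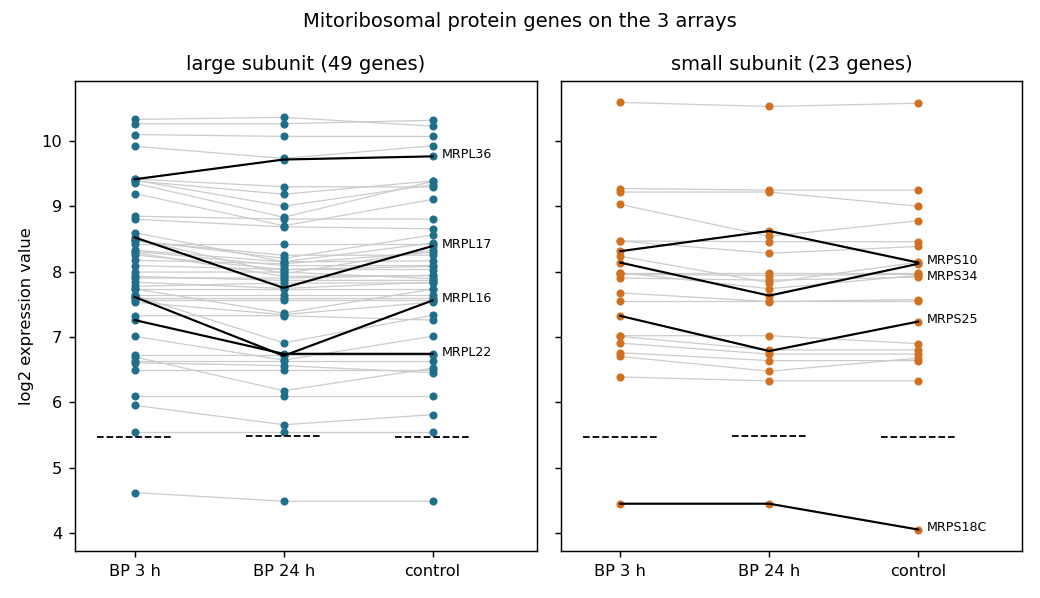
Log2 expression value (vertical axis) of the 49 large-subunit genes (left) and the 23 small-subunit genes (right) on the BP 3 h, BP 24 h and control arrays. Each point is 1 gene, lines join the values of a gene, black lines mark named genes and dashed lines the median over all clusters; MRPL16 lies at 6.71 at 24 h, against 7.56 in control cells, and MRPS18C lies below the array median on all 3 arrays.

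No mitochondrial ribosomal protein gene differed from control by 2-fold at either time. In RNA of whole cultures, a change in the cells present and a change in RNA per cell cannot be told apart. At 24 h 1.53% of all genes passed 2-fold upward and 2.11% downward, and at 3 h 0.344% upward and 0.0469% downward. Past 1.5-fold, 0 of the 73 were higher or lower at 3 h (all genes, 1.55% higher and 0.401% lower). At 24 h, 2 were at least 1.5-fold lower and 0 were higher (all genes, 4.04% lower and 4.49% higher), and these were MRPL16 and MRPL17. The differences were therefore small, and a smaller size, 0.32 on the log2 scale (25% higher or 20% lower), was chosen after the values were seen to describe them.

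At 24 h, 13 of the 73 genes lay at least 0.32 below control, or 17.8%, against 7.58% of all genes. In the other direction 2 genes, MRPS10 and MRPS18C, lay at least 0.32 above it, or 2.74%, against 9.18% of all genes. Because most of the 73 lie in the upper part of the array's range, the same counts were made among the 9604 genes above the median level, also after the values were seen. There, 13 of 68 mitochondrial ribosomal protein genes were lower and 1 was higher, against 12.6% and 15.0% of all such genes. The median difference of the 73 was 0.00, as it was for all genes, since 27 had exactly the control value. The middle of the distribution ran between -0.20 and 0.00 (quartiles), against -0.03 and 0.01 for all genes.

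The large subunit, with 49 of the 73 genes, held 11 of the 13 lower genes. By the same measure 11 of its 49 genes were lower at 24 h and 0 were higher, while 2 of the 23 small-subunit genes were lower and 2 higher. Over all genes 7.58% were lower and 9.18% higher, and among those above the median level 12.6% and 15.0%. Counted at any size, 24 of the 49 large-subunit genes and 11 of the 23 small-subunit genes lay below control at 24 h. The share was 27.9% of all genes and 35.1% of those above the median level. Both subunits had a median difference of 0.00. Within the large subunit, 9 of 31 proteins of bacterial descent and 2 of 18 mitochondria-specific proteins were at least 0.32 lower. In the small subunit, 0 of 14 proteins of bacterial descent and 2 of 9 mitochondria-specific proteins were that much lower. MRPS2, of bacterial descent, fell just short of that size at -0.31. MRPS6, MRPS21 and MRPS28, also of bacterial descent, were not counted, and their shared clusters stood at 0.51, -0.09 and -0.33. Median differences were -0.04 and -0.02 for bacterial descent in the large and small subunit, and 0.00 for mitochondria-specific proteins in both. The differences between these groups were not tested.

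**Figure D2:**
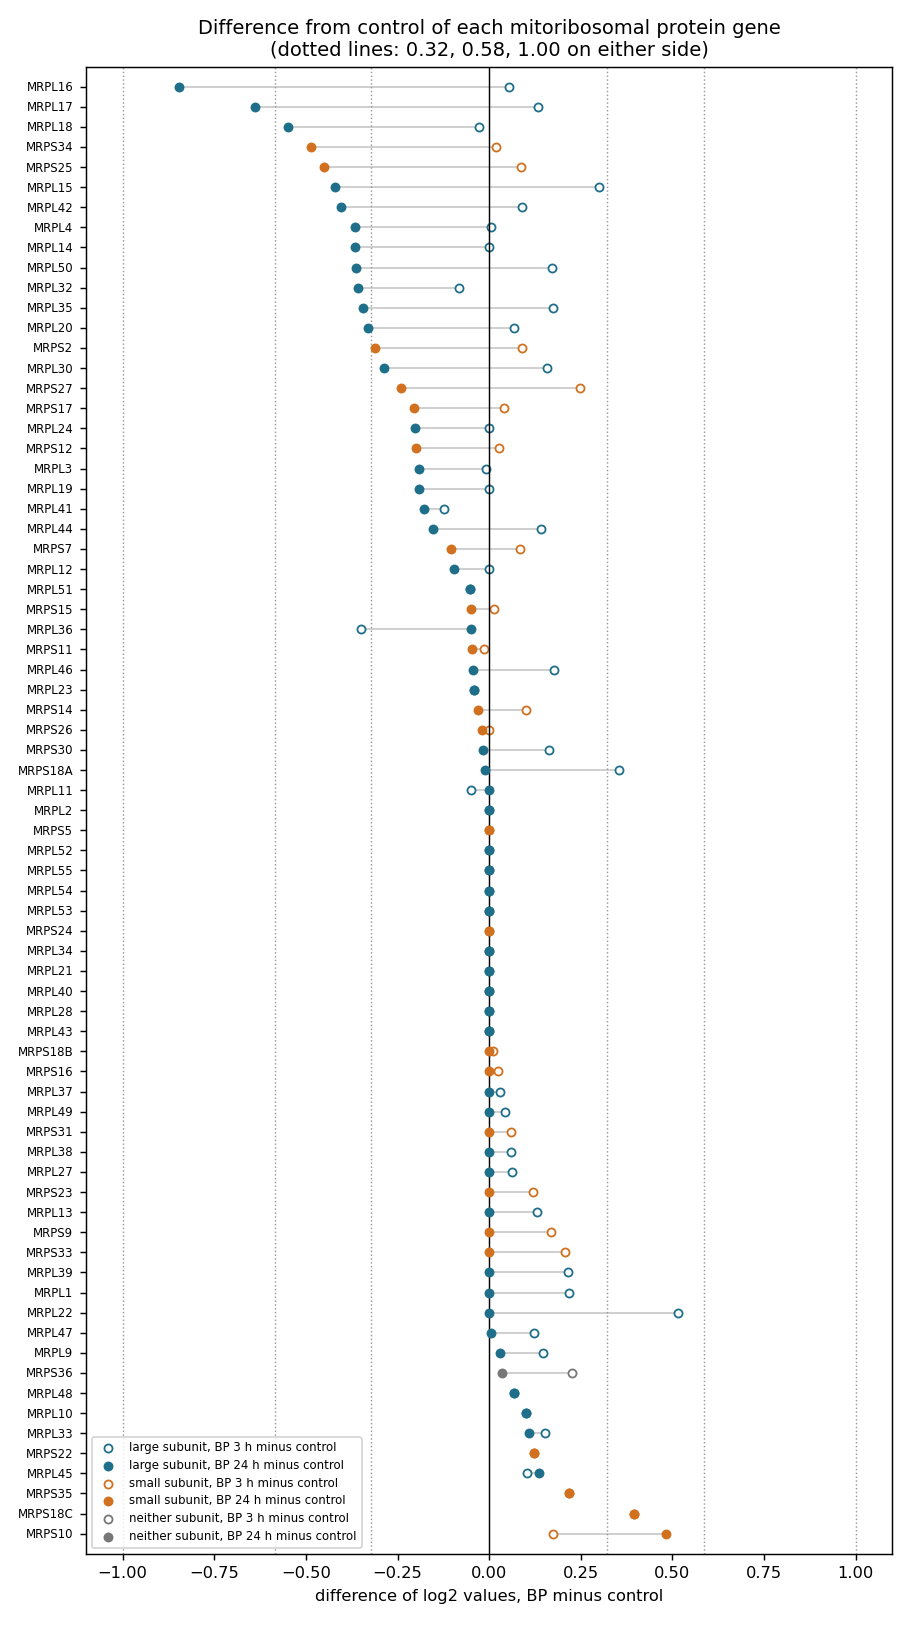
Difference of log2 values from control (horizontal axis) for each of the 73 genes, ordered by the difference at 24 h, with open circles for BP 3 h and filled circles for BP 24 h. Colour gives the subunit, dotted lines mark 0.32, 1.5-fold and 2-fold; 13 filled circles lie beyond the inner line to the left and 2 to the right.

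Among proteins of bacterial descent in the large subunit, MRPL16, which lies in the core of the subunit near the tRNA sites, had the largest difference. It was 7.61 at 3 h and 6.71 at 24 h, against 7.56 in control cells, a difference of -0.85 at 24 h. MRPL17, the homologue of bacterial L17 at the rim of the peptide exit tunnel, was 8.52 at 3 h and 7.75 at 24 h, against 8.39 in control cells (-0.64 at 24 h). Both stood close to control at 3 h and below it at 24 h. MRPL18, a protein of the central protuberance, was 9.35 at 3 h and 8.83 at 24 h, against 9.38 in control cells (-0.55 at 24 h). MRPL15 was 7.63 at 3 h and 6.91 at 24 h, against 7.33 in control cells, so it was above control by 0.30 at 3 h and below it by -0.42 at 24 h. MRPL4, whose bacterial counterpart lines the exit tunnel, was 7.73 at 3 h and 7.36 at 24 h, against 7.73 in control cells. These genes shared a value at 24 h below both other arrays.

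MRPL14 had 7.01 at 3 h and 6.64 at 24 h, against 7.01 in control cells. MRPL32, whose precursor is matured by the mitochondrial AAA protease, had 8.48 at 3 h and 8.20 at 24 h, against 8.56 in control cells, and was lower at both times. MRPL35 and MRPL20, named after their values were seen to complete the 13, differed by -0.34 and -0.33 at 24 h. Of the mitochondria-specific proteins of the large subunit, MRPL42 was 9.19 at 3 h and 8.70 at 24 h, against 9.10 in control cells, and MRPL50 was 8.50 at 3 h and 7.97 at 24 h, against 8.33 in control cells. Their differences at 24 h were -0.40 and -0.36.

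Other large-subunit proteins with described roles differed less. MRPL12, the stalk protein that also binds the mitochondrial RNA polymerase, was 7.84 at 3 h and 7.74 at 24 h, against 7.84 in control cells. Its partners in the stalk and its base, MRPL10 and MRPL11, differed by 0.10 and 0.00 at 24 h. MRPL44, a protein with an RNase III-like fold, was 5.95 at 3 h and 5.66 at 24 h, against 5.81 in control cells. MRPL41 differed by -0.12 at 3 h and -0.18 at 24 h, and MRPS30 by 0.16 and -0.02. At the upper end, MRPL45, which lies at the tunnel exit facing the inner membrane, had 10.33 at 3 h and 10.36 at 24 h, against 10.22 in control cells. MRPL33, MRPL48 and MRPL9 differed by 0.11, 0.07 and 0.03 at 24 h. All of these genes stayed within 0.32 of control at both times.

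In the small subunit the genes at the ends of the range went in opposite directions. MRPS10, homologue of bacterial S10, had 8.31 at 3 h and 8.62 at 24 h, against 8.14 in control cells, the largest positive difference of the 73 at 24 h (0.48). MRPS18C, one of the S18 homologues, had 4.45 at 3 h and 4.45 at 24 h, against 4.05 in control cells, all below the array median. Among mitochondria-specific proteins, MRPS34 had 8.14 at 3 h and 7.63 at 24 h, against 8.12 in control cells, and MRPS25 had 7.32 at 3 h and 6.78 at 24 h, against 7.23 in control cells. Those pairs lay above and below control, with differences of 0.48, 0.40, -0.49 and -0.45 at 24 h in the order named. MRPS35 and MRPS22 were above control by 0.22 and 0.12 at both times. MRPS27, a pentatricopeptide repeat protein, had 9.03 at 3 h and 8.54 at 24 h, against 8.78 in control cells. MRPS12, homologue of the bacterial decoding-centre protein S12, differed by 0.03 at 3 h and -0.20 at 24 h, and MRPS18B by 0.01 and 0.00. MRPS15, among the highest values of the 73 with MRPL45 and MRPL51, had 10.59 at 3 h and 10.52 at 24 h, against 10.57 in control cells.

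At 3 h most of the 73 genes lay slightly above control, with 47 higher, 17 equal and 9 lower, against 31.2%, 41.1% and 27.6% of all genes. Their median difference was 0.06, against 0.00 for all genes, and the sign of both moves with the scaling. When each array was centred on its 75th percentile the median was -0.02 for the 73 and -0.08 for all genes, a gap of 0.06 as with the deposited values, and 43.8% of the 73 were higher, against 22.4% of all genes. Under quantile normalization it was -0.03 for the 73 and -0.02 for all genes, a gap of -0.01, and 45.2% of the 73 were higher, against 32.1% of all genes. Among genes above the median level the shares lay closer together. There 63.2% of the 68 members were higher, against 52.1% of all such genes, with medians of 0.05 and 0.01. Past 0.32, 3 genes were higher and 1 was lower at 3 h, against 5.67% and 3.11% of all genes. The higher count was 1 with 75th-percentile centring, against 3.68% of all genes, and 2 under quantile normalization, against 4.15%. MRPL22, a protein of the exit tunnel wall, had 7.26 at 3 h and 6.74 at 24 h, against 6.74 in control cells (0.52 at 3 h). MRPS18A had 8.29 at 3 h and 7.93 at 24 h, against 7.94 in control cells. The one lower gene, MRPL36, had 9.41 at 3 h and 9.71 at 24 h, against 9.76 in control cells (-0.35 at 3 h). At 24 h MRPL22, MRPS18A and MRPL36 lay close to control. The remaining higher gene, MRPS18C, did not, with 4.45 at 3 h and 4.45 at 24 h, against 4.05 in control cells.

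Between the treated arrays, 50 of the 73 genes were lower at 24 h than at 3 h, 19 were equal and 4 were higher, against 24.1%, 43.2% and 32.7% of all genes. Among genes above the median level 69.1% of the members were lower, against 39.1% of all such genes. The median of the 73 was -0.12, against 0.00 for all genes. It was -0.13 with arrays centred on the median (all genes, -0.01), -0.06 with 75th-percentile centring (all genes, 0.06) and -0.04 under quantile normalization (all genes, 0.01). Under these scalings 94.5%, 57.5% and 61.6% of the 73 were lower, against 68.5%, 20.3% and 36.2% of all genes. Centring gives all genes of equal deposited value the same small offset. Median centring thus counted the 19 equal genes as lower, and 75th-percentile centring counted them as higher. No gene passed 2-fold (all genes, 2.4% lower and 0.807% higher). MRPL15, MRPL16 and MRPL17 were at least 1.5-fold lower, against 5.12% of all genes, and 0 were higher, against 2.45%. Past 0.32, 17 genes were lower, or 23.3%, against 9.43% of all genes, and 0 were higher, against 6.96%. With 75th-percentile centring 14 were lower and 2 higher, against 8.22% and 9.09% of all genes. Quantile normalization also gave 14 lower and 2 higher, against 8.34% and 7.96% of all genes. Among genes above the median level the shares of all genes were 15.8% lower and 9.69% higher. Of the 17, 13 were among the 49 large-subunit genes and 4 among the 23 small-subunit genes. The comparisons of each time with control share the control array, and this one does not use it.

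**Figure D3:**
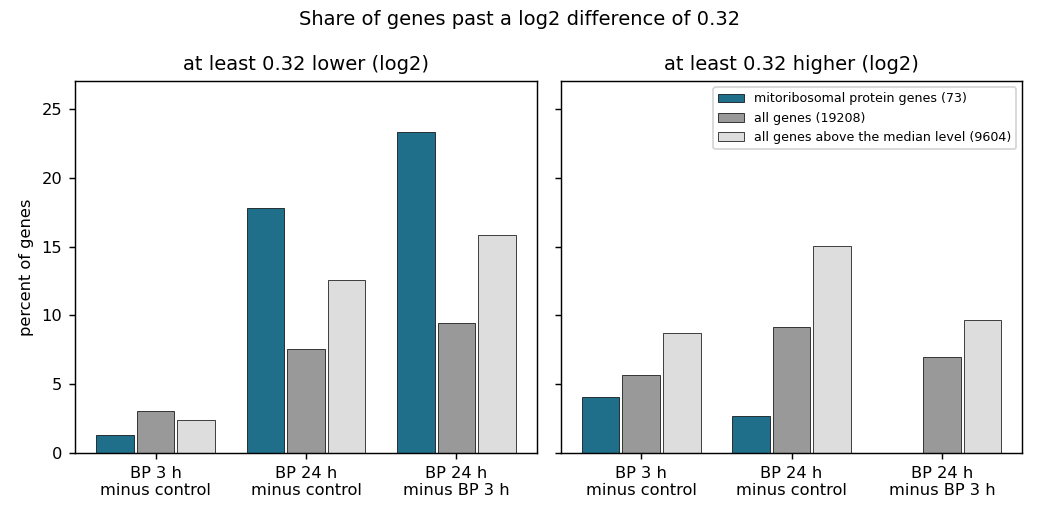
Percent of genes (vertical axis) lower (left) or higher (right) by at least 0.32 on the log2 scale in the 3 comparisons, for the 73 mitochondrial ribosomal protein genes, all 19208 genes and the 9604 genes above the median level. At 24 h 17.8% of the 73 were lower than control, against 7.58% of all genes, and 2.74% were higher, against 9.18%.

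Promoter sequences of RefSeq (GRCh38.p14), 250 bases before and 50 bases after each start, were found for 66 of the 73 genes. Of these, 4 are printed 5′ to 3′ to show the genes with the lowest and highest differences at 24 h, MRPL16 and MRPL17 as the lowest, MRPS10 and MRPS18C as the highest. Capitals mark matches on either strand to CCGGAA (the core bound by ETS factors such as GABP), AAGATGGC (YY1), TGCGCA (part of the NRF1 palindrome) or CCAAT (NF-Y).
MRPL16, chr11:59810729-59811028, minus strand: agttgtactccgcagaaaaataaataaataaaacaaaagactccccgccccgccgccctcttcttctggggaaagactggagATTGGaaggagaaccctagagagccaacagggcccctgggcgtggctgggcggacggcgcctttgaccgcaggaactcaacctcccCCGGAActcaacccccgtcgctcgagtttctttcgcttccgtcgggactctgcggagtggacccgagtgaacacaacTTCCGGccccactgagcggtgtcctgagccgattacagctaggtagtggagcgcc
MRPL17, chr11:6683291-6683590, minus strand: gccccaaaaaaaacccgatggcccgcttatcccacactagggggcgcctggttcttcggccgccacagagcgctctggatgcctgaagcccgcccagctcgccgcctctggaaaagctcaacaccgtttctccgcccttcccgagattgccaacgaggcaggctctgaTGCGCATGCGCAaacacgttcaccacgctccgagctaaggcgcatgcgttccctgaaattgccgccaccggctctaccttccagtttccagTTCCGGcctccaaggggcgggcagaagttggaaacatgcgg
MRPS10, chr6:42217812-42218111, minus strand: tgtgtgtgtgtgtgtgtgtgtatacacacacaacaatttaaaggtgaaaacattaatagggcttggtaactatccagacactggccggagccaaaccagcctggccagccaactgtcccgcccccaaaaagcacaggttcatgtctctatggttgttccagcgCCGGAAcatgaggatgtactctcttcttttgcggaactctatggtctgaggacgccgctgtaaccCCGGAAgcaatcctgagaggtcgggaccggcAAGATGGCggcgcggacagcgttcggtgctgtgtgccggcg
MRPS18C, chr4:83455808-83456107, plus strand: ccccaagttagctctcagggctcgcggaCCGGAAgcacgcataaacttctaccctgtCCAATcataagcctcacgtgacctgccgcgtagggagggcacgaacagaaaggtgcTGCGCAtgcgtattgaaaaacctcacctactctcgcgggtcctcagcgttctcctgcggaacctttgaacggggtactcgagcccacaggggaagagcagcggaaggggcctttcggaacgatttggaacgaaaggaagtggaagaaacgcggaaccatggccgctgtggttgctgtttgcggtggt

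All 4 windows held CCGGAA, read as TTCCGG on the other strand in MRPL17 and in 1 of the 2 matches of MRPL16. The window of MRPL17 held a pair of adjacent TGCGCA matches that form the full palindrome. Over the 66 genes, CCGGAA was found in 57.6% of windows, against 23.5% of 13912 genes on the arrays and 17.6% of all 27305 promoters in the table. AAGATGGC stood in 30.3% of the 66 windows, against 4.13% of array genes and 3.03% of all promoters. TGCGCA was found in 18.2%, against 11.0% and 8.42%, and CCAAT in 28.8%, against 36.4% and 35.7%. The NRF1 palindrome, of which TGCGCA is a part and which overlaps it, was in 1 of the 66 windows, or 1.52%, against 1.80% of array genes and 1.36% of all promoters. A match describes these letters only.

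Of the 13 genes lower at 24 h, 11 had a promoter in the table. CCGGAA was in 4 of these 11, against 34 of the other 55, and AAGATGGC in 4 of 11, against 16 of 55. TGCGCA was in 3 of 11, against 9 of 55, and CCAAT in 5 of 11, against 14 of 55. These shares were not tested. Of the 66 genes with a promoter, the windows of 16 overlapped that of a gene on the opposite strand, and the partner was measured for 11. MRPL46 and MRPS11, each counted as the partner of the other, differed from control by -0.04 and -0.05 at 24 h. MRPL18 and TCP1, a chaperonin subunit, differed by -0.55 and -0.26, whereas MRPL27 and the nuclease subunit EME1 differed by 0.00 and -1.33. MRPL50 and the zinc finger gene ZNF189 differed by -0.36 and 0.20, so paired genes were found both on the same side and on opposite sides of control.

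Other genes of mitochondrial translation were taken from lists by membership. Of all genes, 7.58% were lower and 9.18% higher by at least 0.32 at 24 h. Among genes above the median level these shares were 12.6% and 15.0%. Of 7 ribosomal subunits with other symbols, 0 passed 0.32 at 24 h. PTCD3 was -0.31, DAP3 0.18 and ICT1, a peptide-release protein of the large subunit, 0.11. Of 22 assembly factors and 14 translation factors none passed that size either. The farthest were FTSJ2, an rRNA methyltransferase, at -0.30 and TSFM, the elongation factor Ts, at -0.31. Of 19 mitochondrial tRNA synthetases 4 were lower by at least 0.32 and 0 higher. LARS2, the leucine enzyme, was 8.43 at 3 h and 7.70 at 24 h, against 8.51 in control cells. MARS2, the methionine enzyme, was 8.11 at 3 h and 7.53 at 24 h, against 8.22 in control cells. Both lay more than 1.5-fold below control at 24 h.

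Of 17 genes for maintenance and expression of mitochondrial DNA, 7 were lower by at least 0.32 at 24 h and 1 was higher. The shares of all genes were 7.58% and 9.18%. TFAM, which packages mitochondrial DNA and starts its transcription, was 8.61 at 3 h and 7.67 at 24 h, against 8.50 in control cells. SUPV3L1, an RNA helicase of the mitochondrial degradosome, was 9.00 at 3 h and 9.49 at 24 h, against 8.65 in control cells. KIAA0391, a subunit of mitochondrial RNase P, differed by -0.59. The helicase therefore lay on the opposite side of control from the other 2. Of 7 regulators of mitochondrial genes 0 passed 0.32, with NRF1 at 0.21 and ESRRA at -0.23. Of 23 import genes 1 was lower and 1 higher, TIMM8A at -0.76 and HSPA9 at 0.44. Of 68 nuclear subunits of the respiratory chain and ATP synthase 5 were lower and 1 higher, against 7.58% and 9.18% of all genes. ATP5D was at -0.54 and COX6C at 0.43.

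Transcripts of mitochondrial DNA were measured for 7 genes, and 2 of them were higher by at least 0.32 at 24 h, ND2 at 0.44 and ND5 at 0.37. Over all genes 9.18% were higher and 7.58% lower by that size. ND6, encoded on the other strand, differed by -0.31. Of 67 cytosolic ribosomal protein genes 1 was lower by at least 0.32, RPL4 at -0.50, and 0 were higher. RPL4 was 4.03 at 3 h and 4.03 at 24 h, against 4.53 in control cells, below the array median on each array. Their median difference was 0.04 at 24 h and lay between 0.01 and 0.05 under the scaling, cluster and filter alternatives. These lists share the arrays with the 73 genes, and no difference between lists was tested.

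**Figure D4:**
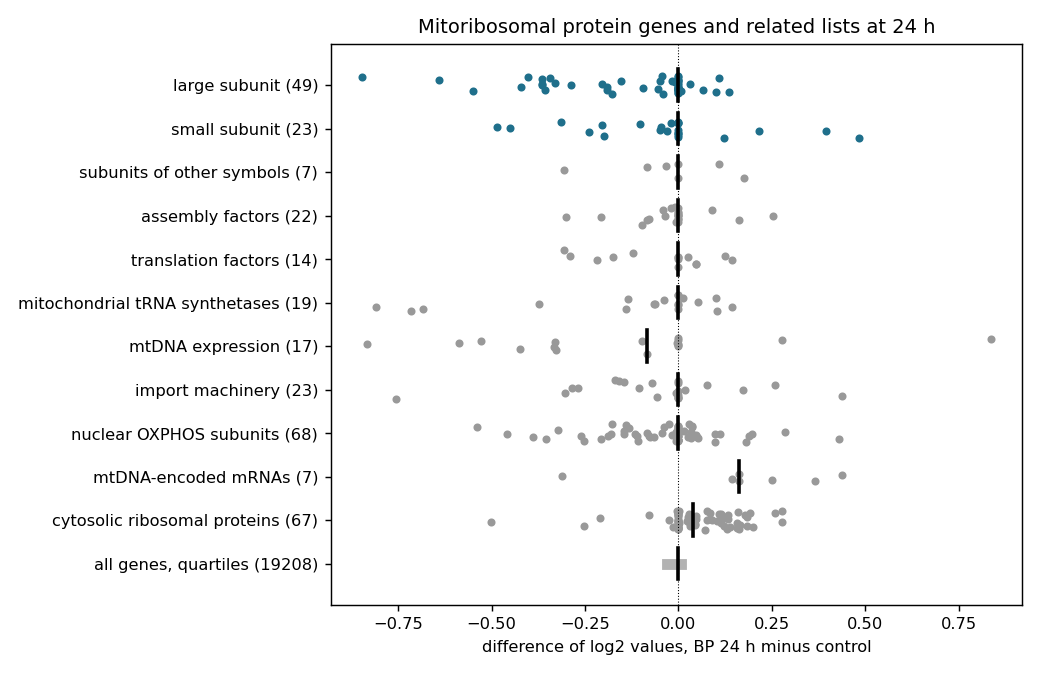
Difference of log2 values, BP 24 h minus control (horizontal axis), for the large and small subunit genes (blue) and the related lists (grey), 1 point per gene with the number of genes in parentheses. Vertical bars are medians and the wide grey bar spans the quartiles of all genes; the large subunit reaches -0.85 and its highest gene 0.14, while cytosolic ribosomal proteins lie mostly between 0.00 and 0.28.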

How the data were processed

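LNCaP RNA was labelled with biotin by the authors and hybridized to 3 Affymetrix Human Gene ST arrays, 1 per condition. The authors deposited log2 expression values for 33297 transcript clusters, which were used without further normalization. Expression Console and RMA are given, unversioned, in the submitters' processing notes, whereas the study's methods describe MAS5.0 followed by scaling of each chip in GeneSpring, so which normalization made the values is not settled, and small differences can depend on it. Gene symbols and cytobands were read from 1 of 9 deposited comparison tables. The log2 ratios and folds of the authors' own comparisons in those tables were not used.

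For a gene with several clusters the one with the highest mean was taken. Differences of log2 values were computed, and genes past 2-fold, 1.5-fold and 0.32 (log2) were counted. With 1 array per condition no test was run, and precision is limited by that number. The members, lists and rules were chosen with earlier results of these data known. Named members were those past 2-fold, the 10 lowest and 10 highest differences at 24 h, the 5 lowest and 5 highest at 3 h, the 3 highest and 3 lowest mean levels, and 9 of described roles, with up to 3 genes of each related list, of which 1 is not reported here. Other named genes were chosen after their values were seen. Alternatives centred the arrays on the median or 75th percentile, applied quantile normalization, averaged clusters, dropped dim genes or equal values, added subunits with other symbols, and used other thresholds, 1.5-fold, 3-fold and 0.32 (log2). The calculations were tested on simulated data with planted changes larger than 2-fold, called at 2-fold. That test did not cover counts past 0.32 or values exactly equal between arrays. Python 3.11.15, numpy 2.4.6, pandas 2.3.3 and matplotlib 3.10.9 were used.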

Additional observations from a re-analysis of the deposited data

Results flagged for a closer look

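The median differences of 4 lists lay above control at 3 h and below it at 24 h in the deposited values. For large-subunit proteins of bacterial descent the medians were 0.0049 at 3 h and -0.042 at 24 h, and for small-subunit proteins of bacterial descent they were 0.033 at 3 h and -0.015 at 24 h. For ribosomal subunits with other symbols they were 0.067 at 3 h and -0.0021 at 24 h, and for genes of mitochondrial DNA expression 0.069 at 3 h and -0.085 at 24 h. With 75th-percentile centring all 4 medians lay below 0 at 3 h, from -0.076 to -0.012, as did that of all genes at -0.081. The difference between the times was not tested, and both share the control array.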

How the results depend on the processing

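The median difference of the 73 genes at 3 h was 0.059 with the deposited values, -0.022 with arrays centred on the 75th percentile and -0.028 after quantile normalization, where all genes were at 0.00, -0.081 and -0.022. Its sign therefore moved with all genes under centring, and the gap between the 73 and all genes, 0.059 with the deposited values and with 75th-percentile centring, was -0.0061 after quantile normalization. At 24 h the median was 0.00, and without genes of equal value on both arrays it was -0.13, against 0.00 and -0.015 for all genes. Without such genes it was -0.18 for the large subunit and -0.049 for the small subunit. Counts of genes at least 0.32 lower at 24 h ran from 13 to 15 under the scaling, cluster and filter alternatives. The shares of all genes ran from 7.52% to 12.6%. Genes lower at 24 h than at 3 h numbered 14 to 17, against 8.22% to 15.8% of all genes. In that comparison 0 to 2 were higher, against 6.51% to 9.69%. Genes higher at 3 h numbered 1 to 3, against 3.68% to 8.74%. In addition, the median of the genes of mitochondrial DNA expression was -0.21 among genes above the median level, against -0.09 over the whole list. No array could be left out, and background correction could not be varied from summarised values. No paired analysis was possible because each condition had 1 array.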
